A study of Homo sapiens with 6 samples.

Results

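Among the 17297 genes of the expression table, 9 form a short panel of androgen-induced genes of the prostate luminal cell: the kallikreins KLK2, KLK3 and KLK4, and TMPRSS2, FKBP5, STEAP4, SLC45A3, PMEPA1 and ACPP. They were taken by name as classical targets of androgen signalling, and all 9 were in the table. The cells were LNCaP, an established human prostate cancer line that responds to androgen. A stable line carrying the pBabe retroviral vector with the wild-type GNA13 cDNA (pBabe-Gα13) was compared with a stable line carrying the empty vector (pBabe-vector), in 3 biological replicates each. Both lines were kept under puromycin and were grown as adherent cultures in medium with serum for 48 h before RNA was taken. The labels name no androgen treatment. Each condition was 1 stable line, so the effect of Gα13 and any other difference between the lines cannot be told apart, and the replicates measure the spread between cultures.

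Androgen enters the cell and acts in the nucleus through DNA sequences near its target genes, the androgen response elements. In luminal prostate cells these targets include secreted proteases of the kallikrein family, membrane transporters and enzymes of the seminal fluid, and some of the targets act back on hormone signalling. Gα13, encoded by GNA13, is a G protein α subunit of the G12 family.

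KLK3 and KLK2 are neighbours on chromosome 19 and have similar promoters. As given below, the fitted change of KLK2 was larger than that of KLK3. The difference of their ratio between the lines had an exact two-sided permutation p of 0.10 (0.2 after Benjamini-Hochberg adjustment). The sequences are shown because both genes carry nearly the same response element close to their start. They are the 250 bases before each start (RefSeq, GRCh38.p14, plus strand, 5′ to 3′), at chr19:50854665-50854914 for KLK3 and chr19:50873189-50873438 for KLK2, with the 15-base proximal androgen response element in capitals.
KLK3: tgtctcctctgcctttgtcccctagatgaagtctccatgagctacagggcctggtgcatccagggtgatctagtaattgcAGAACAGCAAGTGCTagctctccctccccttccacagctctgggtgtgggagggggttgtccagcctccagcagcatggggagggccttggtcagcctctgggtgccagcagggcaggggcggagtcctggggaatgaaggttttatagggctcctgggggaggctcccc
KLK2: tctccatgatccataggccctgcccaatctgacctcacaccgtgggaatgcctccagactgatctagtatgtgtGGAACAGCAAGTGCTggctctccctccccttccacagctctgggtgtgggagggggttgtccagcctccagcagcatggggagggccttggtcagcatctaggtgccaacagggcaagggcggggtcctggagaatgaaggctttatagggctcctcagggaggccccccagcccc
Counted from 1 at the 5′ end of the element, the only substitution from KLK3 to KLK2 was A1G. The element began at −170 in KLK3 and at −176 in KLK2. The KLK2 element was chosen as the closest match in its window to that of KLK3, and the shared 14-base core, GAACAGCAAGTGCT, was taken from both. This core was found in 2 of 35116 promoter windows of 300 bases, those of KLK2 and KLK3. These 2 matches were therefore fixed by the choice. Over windows that run 50 bases past the start, the promoters of KLK2 and KLK3 were identical at 79.3% of aligned positions, against 46.7% for KLK2 and KLK4 and 46.6% for KLK3 and KLK4. The half-site AGAACA, searched on both strands, was in 14.8% of all windows and in 4 of the 13 windows of the members, 1 each of KLK3 and FKBP5 and 2 of PMEPA1. The palindrome GNACANNNTGTNC, searched the same way, was in 0.39% of all windows and in 0 of the 8 members. Protein binding to these elements was not measured in these samples, and a match is a description of the letters only.

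The libraries held 33002160 to 40628970 counts, and values are CPM, the counts scaled to the size of their library, after TMM normalization, with factors of 0.963 to 1.05. GNA13 was at 820, 886 and 747 CPM in pBabe-Gα13 and at 76.7, 69.4 and 65.4 CPM in pBabe-vector, as the labels state (log2 fold change 3.54, edgeR quasi-likelihood test with Benjamini-Hochberg adjustment, adjusted p = 9.12e-05). Below, the 3 values of a line are given in the order std, replicate 2, replicate 3, where std is a tag in the headings of 1 library of each line. The heading of the Gα13 library with this tag also carries the number of replicate 2, as another Gα13 library does, and it was paired by the tag. Within the 3 pairs so formed the libraries deviated together from the mean of their line (r = 0.659 to 0.888 across 12778 genes), while this library and the vector library of replicate 2 did not (r = -0.0306), so the model was also fitted with the replicate as a block. The luminal markers were present in every library, with KRT8, KRT18 and EPCAM among 9 of 10 in the table, and their summed level was 3440 to 3651 CPM in pBabe-Gα13 and 3281 to 3357 CPM in pBabe-vector. Basal markers summed to 7.96 to 15.0 CPM against 4.39 to 5.88 CPM, neuroendocrine markers (4 of 8 in the table) to 28.4 to 61.3 CPM against 38.8 to 63.5 CPM, and stromal markers to 19.7 to 29.0 CPM against 17.5 to 30.1 CPM. Of 7 leukocyte markers, only CD14 was in the table, at 0.116 to 0.206 CPM against 0.0295 to 0.0954 CPM. The part of these markers in the values below was not tested.

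Without the replicate block, 0 of the 9 genes passed an adjusted p of 0.05 in edgeR, and 1 of 9, KLK2, had an unadjusted p under that value, as did 8.46% of all genes. Of all genes 0.139% were called, 0.116% higher and 0.0231% lower in pBabe-Gα13. With the block, 6 of 9 were called, KLK2, KLK3, SLC45A3 and ACPP as higher and KLK4 and PMEPA1 as lower. Over all genes the block called 19.7%, 9.32% higher and 10.4% lower, and among the 6683 genes with a mean of at least 30 CPM it called 28.5%. Of the 9 members, 8 reached that level. The calls depend on the tool as well: DESeq2 with the block also called 6 members, while limma-trend with the block called 0, with KLK2 nearest at an adjusted p of 0.0525. In 0 of the 9 genes were the groups of 3 libraries free of overlap, against 14.1% of all genes, and 7 of 9 had the same sign in all 3 pairs, against 48.0% of all genes. The median log2 fold change of the members was 0.19 without the block, against -0.0013 over all genes. In RNA from whole cultures, a smaller share of expressing cells and less RNA per cell cannot be told apart.

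KLK2 had the largest fitted change of the 9. It encodes a secreted trypsin-like protease (human kallikrein 2) that can activate the KLK3 protein, and it lies at chr19:50861568-50880567 on the plus strand (Gencode 44, GRCh38). The RefSeq start of KLK2, used for the promoter and for distances along the locus, is at chr19:50873439, inside this interval. KLK2 was at 173, 371 and 170 CPM in pBabe-Gα13 and at 111, 171 and 83.3 CPM in pBabe-vector. The Gα13 line was the higher of each pair, and the groups overlapped only because the vector library of replicate 2, at 171 CPM, was above the Gα13 library of replicate 3. The means were 238 ± 115 and 122 ± 44.8 CPM (SD, n = 3), a log2 fold change of 0.97 (SE 0.37, 95% interval 0.11 to 1.82, or 1.96-fold), with an edgeR adjusted p of 0.509. Within pairs the log2 differences were 0.64, 1.12 and 1.03. With the replicate block the change was 0.93 (SE 0.07, 95% interval 0.80 to 1.07) and the edgeR adjusted p was 3.19e-11. The exact permutation test, two-sided and without the pairing, gave p = 0.2 on the log2 CPM of the 6 libraries. The smallest p it can give is 0.10, and it counts the spread between pairs as noise.

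KLK3 encodes prostate-specific antigen, the chymotrypsin-like protease that liquefies the seminal clot and is measured in serum. The gene is at chr19:50854915-50860764 on the plus strand and was by far the most abundant member. KLK3 was at 2780, 4204 and 2445 CPM in pBabe-Gα13 and at 2674, 3784 and 1836 CPM in pBabe-vector. Its counts made up 0.178% to 0.421% of a library and ranked between the 10th and the 29th of all genes. The ranges of the lines covered each other over most of their length, and replicate 2 was the highest and replicate 3 the lowest library in both. The means were 3143 ± 934 and 2765 ± 977 CPM (SD, n = 3), and the fitted log2 difference of 0.19 (SE 0.30, 95% interval -0.51 to 0.88) had an edgeR adjusted p of 0.974. With the replicate block it was 0.21 (95% interval 0.09 to 0.32, edgeR adjusted p = 0.00764), from pair differences of 0.06, 0.15 and 0.41. The call rested on replicate 3, since without that pair the edgeR adjusted p with the block was 0.272.

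KLK4 encodes a secreted serine protease of the same locus that also acts in enamel formation. It lies at chr19:50906351-50911395 on the minus strand, opposite to KLK2 and KLK3. KLK4 was at 135, 182 and 145 CPM in pBabe-Gα13 and at 155, 196 and 173 CPM in pBabe-vector. Here the vector line was the higher of each pair, by 0.20, 0.11 and 0.26 on the log2 scale, while the groups overlapped. The means were 154 ± 24.6 and 175 ± 20.2 CPM (SD, n = 3), with a log2 fold change of -0.18 (SE 0.14, edgeR adjusted p = 0.868) and, with the replicate block, of -0.19 (95% interval -0.30 to -0.08, edgeR adjusted p = 0.00970). Without replicate 3 the edgeR adjusted p with the block was 0.204.

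**Figure D1:**
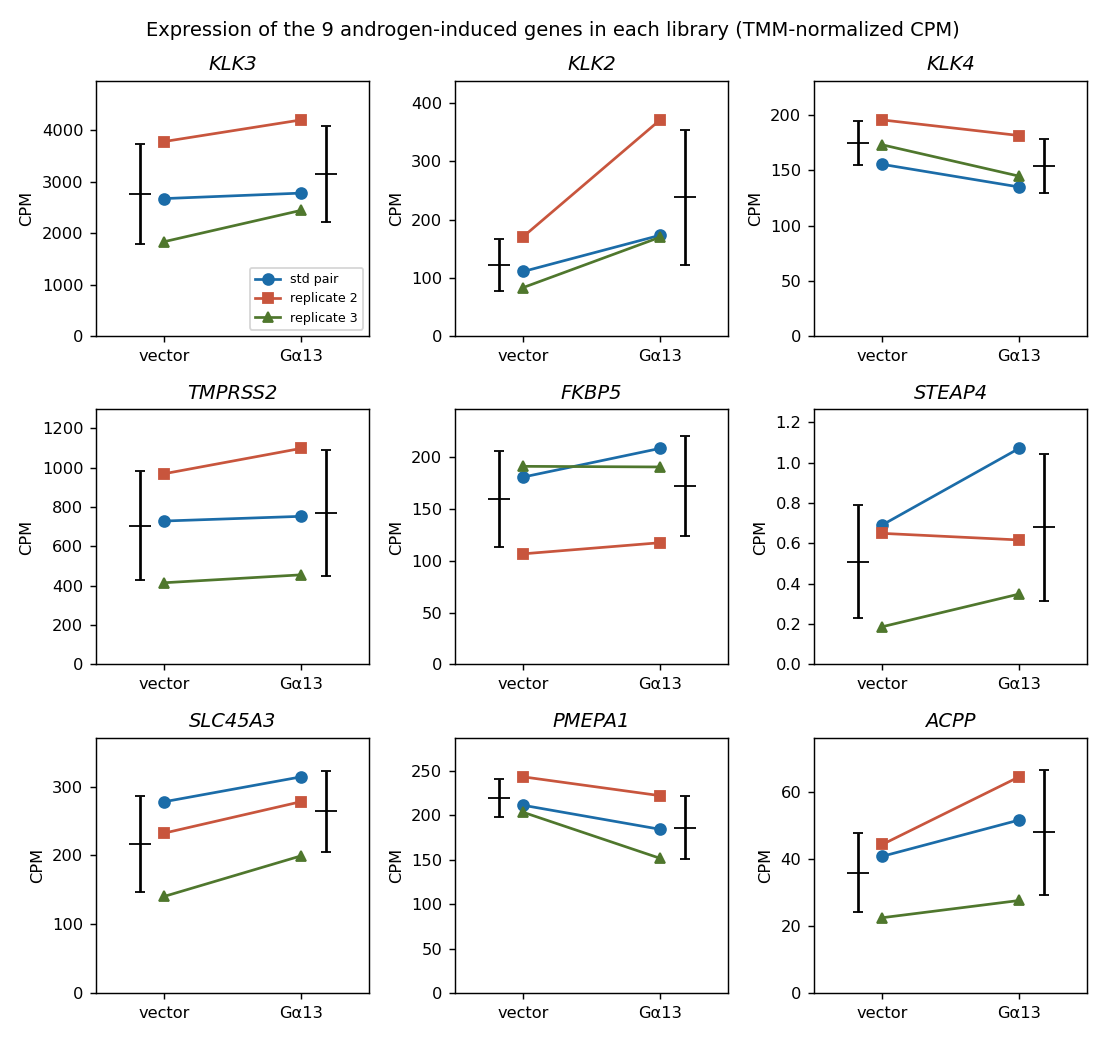
TMM-normalized CPM (vertical axes, each from 0) of the 9 genes in pBabe-vector and pBabe-Gα13. Lines join the libraries of a pair, and bars beside them are the mean ± SD of 3 libraries. KLK2 is higher in pBabe-Gα13 along all 3 lines and KLK4 and PMEPA1 are lower along all 3. In all 9 genes the replicate pair has a larger share of the sum of squares of log2 CPM than the line. The gap is widest for TMPRSS2, FKBP5 and KLK3.

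The kallikreins were also compared with each other inside each library, where the replicate difference that they share drops out of the ratio. KLK2 counts equalled 6.23%, 8.84% and 6.95% of KLK3 counts in pBabe-Gα13 and 4.15%, 4.52% and 4.54% in pBabe-vector. The groups did not overlap, with means of 7.34 ± 1.35% and 4.40 ± 0.220% (SD, n = 3), a log2 difference of 0.72. The exact two-sided permutation p was 0.10, the smallest that 3 against 3 libraries allow, and 0.2 after Benjamini-Hochberg adjustment over the 6 ratios computed. KLK4 counts equalled 77.9%, 48.9% and 85.2% of KLK2 counts in pBabe-Gα13 and 140%, 114% and 208% in pBabe-vector. These are ratios of counts, not of levels per length, since the transcript of KLK2 is 2.83 kb and that of KLK4 1.42 kb long. The log2 difference between the lines was -1.12, again without overlap (exact p = 0.10, adjusted 0.2). The ratio of KLK4 to KLK3 overlapped between the lines, at 5.03 ± 0.816% and 6.80 ± 2.30% (exact p = 0.3, adjusted 0.36, n = 3).

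Assignment of reads between KLK2 and KLK3, which are close paralogs, was checked on the transcripts of Gencode 44. Of 7571 windows of 150 bases in KLK2 transcripts, the length of 1 read, 0 were also in a KLK3 transcript. Of 6861 windows of 50 bases, 11 were, which is 0.16%. Nearly all windows of KLK2 thus differed from KLK3 in at least 1 base.

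Around them the table held KLK15 and the pseudogene KLKP1, the other 11 of 13 kallikrein entries being absent from the table. In the order of the chromosome the genes were KLK15, KLK3, KLK2, KLKP1 and KLK4, with lower boundaries at -29.6, 0, 18.5, 27.2 and 51.4 kb from that of KLK3 (RefSeq). KLK15 averaged 4.32 CPM over the 6 libraries, and its fitted log2 difference was -0.40 (edgeR adjusted p = 0.901, and 0.0476 with the replicate block). KLKP1 averaged 3.17 CPM, and its fitted log2 difference was 0.50 (edgeR adjusted p = 0.624, and with the block 0.52 and 0.0271). Both calls with the block were lost in DESeq2 and in limma-trend with the block, and KLK15 had an edgeR adjusted p of 0.0750 with the block when centred on its chromosome. Without the std pair or without replicate 3, 0 of these genes were called with the block. Along the locus the signs of the estimates ran negative, positive, positive, positive and negative. KLK15 counts were 0.118 ± 0.0275% of KLK3 counts in pBabe-Gα13 and 0.179 ± 0.0369% in pBabe-vector, without overlap (exact p = 0.10, adjusted 0.2, n = 3). For KLKP1 these shares were 0.123 ± 0.0261% and 0.0982 ± 0.0214%, with overlap (exact p = 0.2, adjusted 0.3, n = 3).

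**Figure D2:**
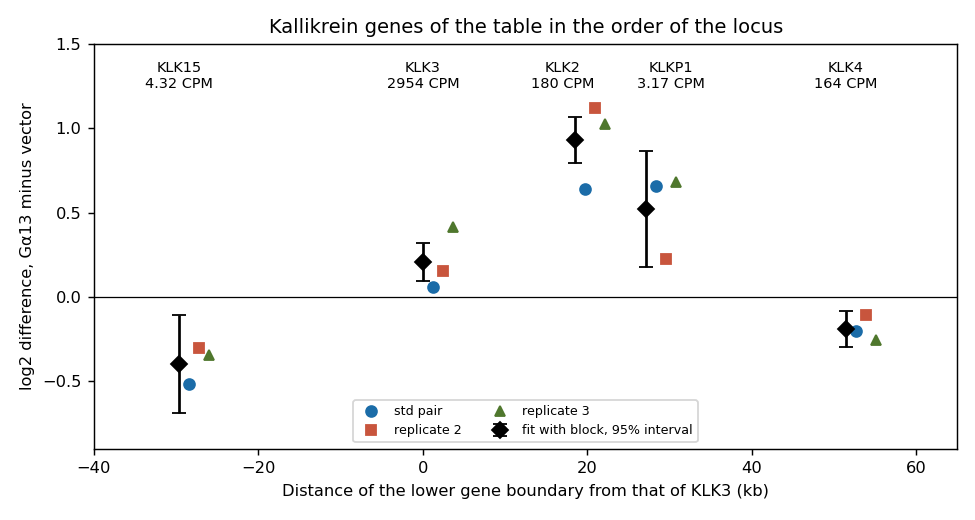
Log2 difference of pBabe-Gα13 from pBabe-vector (vertical axis) for the 5 kallikrein genes of the table, by the distance of their lower boundary from that of KLK3 in kb (horizontal axis). Diamonds with bars are the edgeR estimate with the replicate block and its 95% interval, coloured marks drawn slightly to the right are the 3 pairs, and the mean CPM stands above each gene. KLK2 stands highest at 0.93, KLK3 is at 0.21 with the level of 2954 CPM, and both outer genes lie below 0.

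TMPRSS2 encodes a serine protease of the cell membrane, known for its fusions with ERG in prostate cancer and for priming viral spike proteins. The gene is at chr21:41464300-41531116 on the minus strand. TMPRSS2 was at 753, 1098 and 455 CPM in pBabe-Gα13 and at 729, 969 and 415 CPM in pBabe-vector. Replicate 3 was below replicate 2, with log2 differences of -1.27 and -1.22 in the respective lines, while the lines themselves differed by 0.13 (SE 0.38, 95% interval -0.75 to 1.00, edgeR adjusted p = 1.0). With the replicate block the difference was 0.12 (95% interval 0.02 to 0.22, edgeR adjusted p = 0.0929), from pairs at 0.05, 0.18 and 0.13. TMPRSS2 shares 562 exon bases with MX1 on the opposite strand, and whether the counting used strand is not given in the sources used here. MX1 averaged 2.52 CPM in pBabe-Gα13 and 2.56 CPM in pBabe-vector.

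ACPP, now named ACP3, encodes prostatic acid phosphatase, the secreted enzyme that served as a serum marker before prostate-specific antigen. It lies at chr3:132317369-132368302 on the plus strand. ACPP was at 51.7, 64.6 and 27.6 CPM in pBabe-Gα13 and at 40.9, 44.4 and 22.5 CPM in pBabe-vector. Each Gα13 library was above its partner, although the Gα13 library of replicate 3 was below the vector libraries of the other pairs. The log2 fold change was 0.42 (SE 0.34, edgeR adjusted p = 0.887) and with the replicate block 0.40 (95% interval 0.27 to 0.52, edgeR adjusted p = 2.28e-05), from means of 48.0 ± 18.8 and 35.9 ± 11.8 CPM (SD, n = 3).

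SLC45A3, or prostein, is a membrane transporter of the luminal cell and a fusion partner of ETS genes. It lies at chr1:205657851-205680509 on the minus strand. SLC45A3 was at 314, 278 and 199 CPM in pBabe-Gα13 and at 278, 233 and 140 CPM in pBabe-vector. Its highest library was std in both lines, unlike that of the kallikreins, and the difference within pairs was 0.18, 0.26 and 0.51. The log2 fold change was 0.28 (SE 0.26, edgeR adjusted p = 0.910), and with the replicate block 0.31 (95% interval 0.19 to 0.43, edgeR adjusted p = 0.000196), from means of 264 ± 58.8 and 217 ± 70.2 CPM (SD, n = 3).

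STEAP4, a metalloreductase of the six-transmembrane family that reduces iron and copper, was close to the limit of these libraries. The gene is at chr7:88270892-88306894 on the minus strand. It had 40, 21 and 12 counts in pBabe-Gα13 and 29, 22 and 6 counts in pBabe-vector, or 1.07, 0.617 and 0.349 CPM and 0.692, 0.650 and 0.187 CPM. The pairs were on both sides of 0, at 0.59, -0.07 and 0.74, and the log2 fold change of 0.40 (SE 0.57, 95% interval -0.92 to 1.72) had an edgeR adjusted p of 0.962 (0.484 with the replicate block). A difference between the lines was thus not called, and the part of depth in this was not tested. STEAP4 also shares 782 exon bases with an antisense long non-coding RNA. Among the other STEAP genes, STEAP2 was at 816 and 770 CPM and STEAP1 at 286 and 284 CPM in the respective lines. Of these other STEAP genes 0 of 4 were called without or with the block.

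FKBP5 and PMEPA1 are targets that act back on signalling. FKBP5 encodes FKBP51, a co-chaperone of steroid receptors, and lies at chr6:35573585-35728583 on the minus strand. FKBP5 was at 208, 117 and 191 CPM in pBabe-Gα13 and at 181, 107 and 191 CPM in pBabe-vector. It was the only member with its lowest library in replicate 2 in both lines, the replicate in which KLK2, KLK3, KLK4, TMPRSS2, PMEPA1 and ACPP were highest. The fitted log2 difference between the lines was 0.11 (SE 0.27, 95% interval -0.53 to 0.74, edgeR adjusted p = 0.994, and 0.152 with the replicate block). The pairs were at 0.21, 0.14 and -0.0045.

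PMEPA1 encodes a membrane protein that binds NEDD4 ubiquitin ligases and dampens TGF-β signalling. It lies at chr20:57648392-57711536 on the minus strand and shares 343 exon bases with the antisense RNA NKILA. PMEPA1 was at 184, 222 and 152 CPM in pBabe-Gα13 and at 211, 243 and 203 CPM in pBabe-vector, the vector library being the higher of each pair. The means were 186 ± 35.3 and 219 ± 21.2 CPM (SD, n = 3), with a log2 fold change of -0.24 (SE 0.15, edgeR adjusted p = 0.806) and, with the replicate block, of -0.25 (95% interval -0.36 to -0.14, edgeR adjusted p = 0.00173). Without replicate 3 the edgeR adjusted p with the block was 0.160. The median log2 fold change of the 337 genes of chromosome 20 was -0.21, and relative to it the log2 fold change of PMEPA1 was -0.03, or -0.04 with the block (edgeR adjusted p = 0.687). The chromosomes of the other members had medians between -0.04 and 0.03, and centring on them left the other 5 calls with the block in place and added TMPRSS2 (0.16, edgeR adjusted p = 0.0316).

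**Figure D3:**
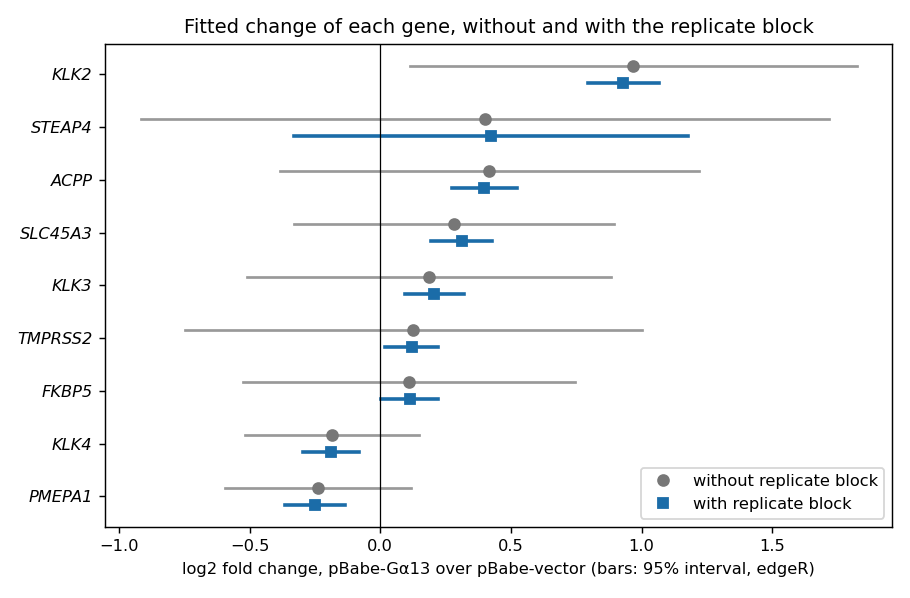
Fitted log2 fold change of each gene, pBabe-Gα13 over pBabe-vector (horizontal axis), without (grey circles) and with (blue squares) the replicate block, each with its edgeR 95% interval. The points hardly move between the fits while the intervals shorten, from 0.11 to 1.82 without the block to 0.80 to 1.07 with it for KLK2. STEAP4 keeps a wide interval in both.

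Most of the variation of these genes lay between replicates. The replicate pair accounted for 98.4% of the sum of squares of log2 CPM of TMPRSS2, 96.4% for FKBP5, 89.6% for KLK3, 85.2% for STEAP4, 84.6% for ACPP, 80.4% for SLC45A3, 71.4% for KLK4, 58.4% for PMEPA1 and 49.0% for KLK2. The line accounted for 48.6% for KLK2, 33.3% for PMEPA1 and 25.9% for KLK4, and for less in the others. From replicate 2 to replicate 3, KLK3 was lower by 0.78 and 1.04 on the log2 scale in pBabe-Gα13 and pBabe-vector, KLK2 by 1.13 and 1.04, and ACPP by 1.22 and 0.98. FKBP5 went the other way, with differences of 0.70 and 0.84. The basal keratins KRT5 and KRT17 and the collagen COL1A2 had 0 counts in replicate 2 of both lines and counts above 0 in the other libraries. What set the replicates apart is not stated in the labels, and its part in these values was not tested.

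**Figure D4:**
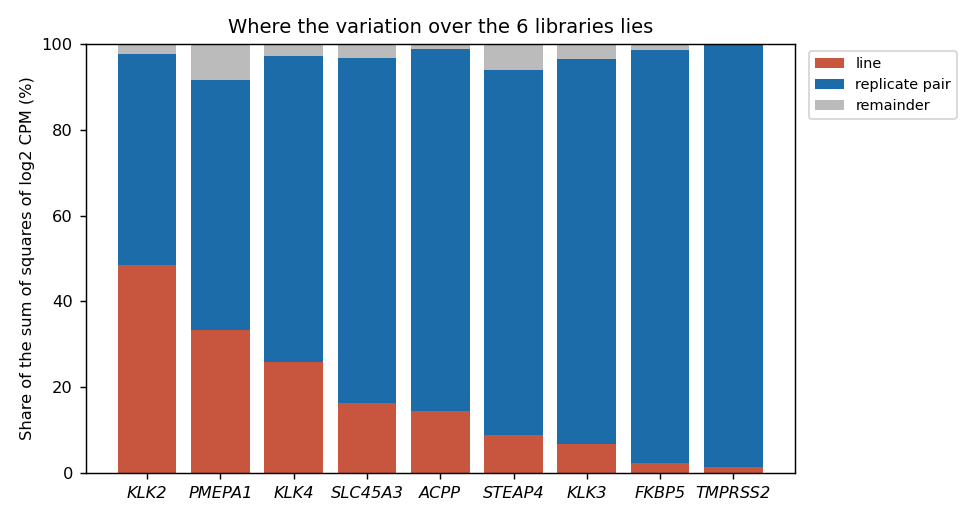
Share of the sum of squares of log2 CPM over the 6 libraries (vertical axis, percent) that goes with the line, with the replicate pair and with the remainder, for each of the 9 genes. The line has its largest share in KLK2, at 48.6%, and the pair nearly the whole of TMPRSS2, at 98.4%.

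Per kilobase of the MANE Select transcript, KLK3 stood first in pBabe-vector, at 1888 ± 668 CPM per kb (SD, n = 3). TMPRSS2 followed at 204 ± 80.6 CPM per kb and overlapped with KLK4 at 123 ± 14.2 CPM per kb. Then came SLC45A3 at 64.0 ± 20.7, PMEPA1 at 44.3 ± 4.27, KLK2 at 43.0 ± 15.8 and FKBP5 at 42.5 ± 12.3 CPM per kb, and in this run each overlapped with the next. ACPP was at 11.3 ± 3.71 CPM per kb and STEAP4 at 0.0510 ± 0.0280 CPM per kb. In pBabe-Gα13 KLK2 averaged 84.2 ± 40.8 CPM per kb, above SLC45A3 at 77.9 ± 17.3 CPM per kb and within its spread.

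Among 22 genes of the androgen response machinery, coregulators and chaperones among them, 0 were called without the block, where 2 had an unadjusted p under 0.05, and 6 with it, 2 higher and 4 lower. The latter is 27.3% of the list, near the 28.5% of genes at a mean of at least 30 CPM, and 8.46% of all genes had an unadjusted p under 0.05. NCOA3, a coactivator encoded on chromosome 20, was at 37.8 against 51.9 CPM, or -0.46 on the log2 scale (edgeR adjusted p = 0.339, and with the block 8.22e-07). Relative to the median of its chromosome NCOA3 was at -0.25 without and with the block (edgeR adjusted p = 0.902 and 0.00217). FKBP4, a co-chaperone paralogous to FKBP5, was at 493 against 376 CPM, or 0.39 on the log2 scale (edgeR adjusted p = 0.713, and with the block 1.53e-06). FKBP4 is on chromosome 12, where the median of 620 genes was 0.30, and relative to it FKBP4 was at 0.10 with the block and no longer called (edgeR adjusted p = 0.209).

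Among 42 other androgen-induced genes, 1 was called without the block, TMEFF2, a membrane protein with follistatin domains. TMEFF2 averaged 523 ± 55.2 CPM in pBabe-Gα13 and 271 ± 22.5 CPM in pBabe-vector (SD, n = 3), with a log2 difference of 0.95 in the fit (edgeR adjusted p = 0.0454), close in size to that of KLK2 and with less spread between replicates. That call, made without the block, was lost when any 1 of the 6 libraries was left out. Fitted with the block, TMEFF2 was at 0.94 (95% interval 0.84 to 1.05, edgeR adjusted p = 1.33e-13). Without the block 8 of the 42 genes had an unadjusted p under 0.05 in edgeR, as did 8.46% of all genes. With the block 19 of 42 were called, or 45.2%, 11 higher and 8 lower. The block called 19.7% of all genes and 28.5% of those at a mean of at least 30 CPM. BMPR1B, a BMP receptor, was at 43.0 against 79.3 CPM (-0.88, edgeR adjusted p = 0.146, and with the block 4.98e-12), and the transcription factor MAF was at 44.7 against 28.2 CPM (0.67, edgeR adjusted p = 0.730, and with the block 1.18e-08). The median of this list was 0.10.

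Of 11 androgen-repressed genes, 0 were called without the block, where 3 had an unadjusted p under 0.05, and 5 with it, 2 higher and 3 lower. The calls with the block are 45.5% of the list, against 19.7% of all genes and 28.5% of those at a mean of at least 30 CPM. Without the block 8.46% of all genes had an unadjusted p under 0.05. OPRK1, the κ opioid receptor, averaged 14.0 against 4.45 CPM (log2 fold change 1.66, edgeR adjusted p = 0.299, and with the block 2.23e-11). UGT2B17, which conjugates androgens with glucuronic acid, averaged 26.1 against 53.2 CPM (-1.03, edgeR adjusted p = 0.123, and with the block 1.00e-10). CAMK2N1, an inhibitor of CaM kinase II, averaged 216 against 156 CPM (0.47, edgeR adjusted p = 0.766, and with the block 7.33e-07). UGT2B17 has close paralogs whose reads the counting may have divided. Among the androgen-induced and the androgen-repressed genes alike, the block thus gave calls in both directions. It did so over all genes too, with 9.32% higher and 10.4% lower.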

How the data were processed

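RNA of 6 cultures was sequenced. Per the study's methods, the authors checked reads with FastQC 0.11.7, aligned them with STAR (version not given in the sources used here) to Gencode 38 and counted them per gene with featureCounts. The deposited file is titled as CPM, but it holds whole-number counts, used as deposited, with 0 columns left out. Totals were 33002160 to 40628970 counts. A count of 3, the floor, equals 0.0715 to 0.0935 CPM per library, for counting error only.

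Counts were normalized by TMM and tested over all 17297 genes by the quasi-likelihood functions glmQLFit and glmQLFTest (edgeR 4.0.16 in R 4.3.3) with a term for the line alone, and p-values were adjusted by Benjamini-Hochberg, with calls at an adjusted p under 0.05. Log2 CPM used a prior count of 2. The script was tested on simulated counts. Heading numbers and the tag std paired the libraries: deviations from the line means correlated within pairs at r = 0.659, 0.807 and 0.888, and between pairs at -0.736 to 0.125. The heading of the pBabe-Gα13 library tagged std repeats the number of replicate 2, so it is tied to its line only and paired by the tag. Alternatives were the block, RLE factors, DESeq2 1.42.0, limma-trend (limma 3.58.1), a filter on low counts, centring on chromosomes and leaving out libraries or pairs.

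Exact permutation tests used SciPy 1.17.1 (Python 3.11.15) and did not use the pairing. Gene positions are from Gencode 44 and promoter windows from RefSeq. Of 9 members, 8 had a window, and TMPRSS2 had none. The members and lists were chosen with earlier results of these data known. The text names GNA13, the members, the genes of each list called without the block, the 3 of each list with the smallest p with the block at a mean of at least 1 CPM, the 3 genes most like KLK3 and KLK2 at a mean of at least 10 CPM, and defining markers. Some genes of this rule are not reported here.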

Additional observations from a re-analysis of the deposited data

How the results depend on the processing

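With the replicate block 3407 genes were called in place of 24, and 6 members in place of 0. The lists gave 6 androgen response genes in place of 0, 19 other induced genes in place of 1, 5 repressed genes in place of 0 and 2 other kallikreins in place of 0. DESeq2 without the block called 271 genes, 3 other induced and 2 repressed. Limma-trend called 5 genes and, like RLE factors, 0 other induced genes. DESeq2 with the block called 2000 genes, 6 members, 5 androgen response genes, 16 other induced and 5 repressed, and limma-trend with the block 433 genes, 0 members, 3 androgen response genes, 7 other induced and 1 repressed; both called 0 other kallikreins and were added after seeing the data. Centring on chromosomes with the block called 2180 genes and 6 members.

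Leaving out 1 library in the fit without the block gave 2 to 15 genes, 0 members and 0 other induced genes. TMEFF2 thus lost its call in that fit without any 1 of the 6. Leaving out 1 pair in the block gave 2250 to 3266 genes, 3 to 7 members, 3 to 5 androgen response genes, 16 to 22 other induced genes, 5 repressed genes and 0 to 1 other kallikreins. Without replicate 3 the 3 members called were KLK2, SLC45A3 and ACPP.

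The log2 fold changes of KLK2, KLK4, SLC45A3, PMEPA1 and ACPP kept their direction in all 18 alternatives, KLK2 between 0.49 and 1.29. Leaving out 1 library without the block turned the direction of 4 members, whose ranges were -0.082 to 0.48 for KLK3, -0.22 to 0.43 for TMPRSS2, -0.11 to 0.32 for FKBP5 and -0.083 to 0.72 for STEAP4, and the cause was not tested. Without the Gα13 std library FKBP5 was -0.04 and STEAP4 -0.083. Without the vector library of replicate 2 FKBP5 was -0.11. Without the Gα13 library of replicate 2 KLK3 was -0.082 and TMPRSS2 -0.22, and without the vector library of replicate 3 they were -0.04 and -0.14. In the fit with the block, leaving out any 1 pair kept the direction of all 4. STEAP4 had the fewest counts of the members, at 6 to 40, and the part of depth in its result was not tested. The p-values measure the spread between cultures of 1 line per condition.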

Other observations

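The genes whose log2 CPM followed KLK3 most closely over the 6 libraries, among 9859 other genes with a mean of at least 10 CPM, included KIAA1109 (Pearson's r = 0.998) and BBC3 (0.997). For KLK2 they were ZMAT3 (0.994), ZNF891 (0.989) and PIGH (0.988). These are descriptions over 6 libraries that share lines and replicate pairs. BBC3 encodes PUMA, which promotes apoptosis. PIGH takes part in the synthesis of GPI anchors.

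The lists of cell type markers gave these counts with the replicate block, which called 19.7% of all genes, 9.32% higher and 10.4% lower. Of the 9 luminal markers measured, 3 were higher and 1 lower in pBabe-Gα13. EPCAM, an epithelial adhesion protein, was at 135 against 105 CPM, or 0.37 on the log2 scale (edgeR adjusted p = 0.321 without and 5.95e-06 with the block). The luminal keratins KRT8 and KRT18 had log2 fold changes of 0.33 and 0.25, beside a median of 0.30 on their chromosome, 12, and relative to it both lost their call with the block (0.03 and -0.04, edgeR adjusted p = 0.731 and 0.669). Of the 7 basal markers KRT5, KRT14, KRT17 and CD44 were called higher with the block and 0 lower, from low levels. KRT14 was at 4.38 ± 0.120 against 2.03 ± 0.387 CPM (SD, n = 3). KRT5 had 115, 0 and 128 counts in pBabe-Gα13 and 24, 0 and 19 counts in pBabe-vector, and KRT17 had 74, 0 and 86 against 17, 0 and 12 counts, so that replicate 2 stood apart from the others in both lines. Of the 4 neuroendocrine markers measured, 2 were lower with the block, ENO2 at a log2 fold change of -0.36 and SYP at -0.57, and CHGA was not in the table. Relative to the medians of their chromosomes, ENO2 on chromosome 12 was at -0.66 with the block (edgeR adjusted p = 5.16e-07) and SYP at -0.53 (edgeR adjusted p = 0.0251). Of the 7 stromal markers COL1A2 and COL3A1 were called higher and ACTA2 lower. COL1A1, the most abundant of them, was at 18.6 against 19.2 CPM and was not called (-0.01 with the block, edgeR adjusted p = 0.964). COL1A2 had 96, 0 and 87 against 2, 0 and 3 counts, again with replicate 2 at 0 in both lines, COL3A1 had 36, 8 and 34 against 7, 7 and 18 counts, and ACTA2 was at 2.03 against 5.52 CPM. Of the STEAP family STEAP3 was at 21.8 against 20.4 CPM.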
